A study of Mus musculus with 15 samples.

Results

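Expression of 7 mouse Prame-like genes, Pramel1, Pramel4, Pramel5, Pramel6, Pramel7, Pramef8 and Pramef12, was followed in embryonic stem cells (ESCs) depleted of TET1 or TET2. They are 7 of the 26061 genes in the deposited table and were taken by name. Current RefSeq annotation lists Pramef8 as Pramel12 and Pramef12 as Pramel13. RNA-seq was available from 15 libraries of E14 ESCs, a mouse line of the 129/Ola background kept without feeders in serum and LIF, with 5 libraries in each of 3 groups. All cells had been infected with a pLKO.1 lentivirus and selected with puromycin for 3 days. The shScr group carried a non-targeting hairpin, shTet1 a hairpin against Tet1 and shTet2 a hairpin against Tet2, each group resting on 1 hairpin, so that effects of the hairpin and of the gene cannot be told apart.

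PRAME, the antigen that gave the family its name, was found in human melanoma, and the genes of this family encode leucine-rich repeat proteins that are mostly expressed in germ cells and early embryos. Rodents carry many copies in clusters. PRAME proteins can act as substrate receptors of CUL2 ubiquitin ligases, and human PRAME can bind retinoic acid receptors and dampen their signalling. In mouse ESCs, Pramel7 is known to direct UHRF1, a cofactor of the maintenance DNA methyltransferase DNMT1, to degradation, and Pramel6 and Pramel7 respond to LIF and STAT3. TET enzymes act on the same mark, by oxidising 5-methylcytosine. The comparisons below ask how transcripts of each gene differed between cells depleted of either TET enzyme and control cells.

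The genes lie at 2 places in the genome (coordinates in mm9, GENCODE vM1). Pramel7 (chr2:87329244-87337250, minus strand) and Pramel6 (chr2:87346722-87351029, plus strand) stand next to each other in divergent orientation within an olfactory receptor cluster. The other members fall in the large Prame cluster of chromosome 4, with Pramel1 (chr4:142984331-142990063) and Pramef8 (chr4:143002329-143010994) at its start, Pramel4 (chr4:143649029-143659230) and Pramel5 (chr4:143860536-143870391) further along, and Pramef12 (chr4:143981577-143998367) at its end. All 7 are annotated as protein-coding, and none of their exons overlapped an exon of another annotated gene. Copies matter for read assignment in such clusters, and the exons were therefore searched for stretches of 75 bases, the read length, that also occur elsewhere in the genome. No such stretch was found in Pramel6, Pramel1, Pramef8 or Pramef12, and Pramel7 held 0.05%. In contrast, 12.7% of the stretches of Pramel5 and 92.4% of those of Pramel4 occurred elsewhere, mainly in Gm13102 and other copies, so that reads of these genes cannot be placed with certainty.

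Sequence before the start site was available from RefSeq for 6 of the 7 members. Pramef8 had no entry. The 4 windows given here belong to the pair that moved together, Pramel7 and Pramel6, and to 2 members of the chromosome 4 cluster with more CpGs, and cover the 250 bases upstream of the RefSeq start, found in mm9 by an exact match. CpG dinucleotides, the substrate of DNA methylation and hence of TET enzymes, are in capitals.
Pramel7 promoter window, chr2:87332576-87332825, minus strand: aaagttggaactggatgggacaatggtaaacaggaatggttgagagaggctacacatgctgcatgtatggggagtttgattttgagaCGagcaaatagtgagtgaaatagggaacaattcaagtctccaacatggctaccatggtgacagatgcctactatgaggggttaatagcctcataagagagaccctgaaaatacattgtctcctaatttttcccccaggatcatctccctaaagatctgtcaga
Pramel6 promoter window, chr2:87346472-87346721, plus strand: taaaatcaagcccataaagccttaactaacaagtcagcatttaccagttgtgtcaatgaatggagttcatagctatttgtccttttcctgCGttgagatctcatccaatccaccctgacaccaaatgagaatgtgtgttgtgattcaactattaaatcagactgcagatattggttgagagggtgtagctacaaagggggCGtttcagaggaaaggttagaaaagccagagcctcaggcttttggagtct
Pramel1 promoter window, chr4:142984094-142984343, plus strand: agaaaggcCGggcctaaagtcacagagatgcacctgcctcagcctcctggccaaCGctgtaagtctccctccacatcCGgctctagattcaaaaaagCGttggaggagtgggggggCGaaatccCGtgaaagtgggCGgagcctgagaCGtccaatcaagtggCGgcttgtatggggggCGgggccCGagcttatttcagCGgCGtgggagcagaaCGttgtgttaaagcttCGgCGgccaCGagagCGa
Pramef12 promoter window, chr4:143998368-143998617, minus strand: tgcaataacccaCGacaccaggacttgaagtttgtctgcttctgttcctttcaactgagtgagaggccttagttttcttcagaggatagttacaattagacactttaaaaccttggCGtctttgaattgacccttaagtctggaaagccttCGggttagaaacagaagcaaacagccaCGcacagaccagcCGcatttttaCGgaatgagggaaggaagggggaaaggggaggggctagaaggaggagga

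The windows differed widely in their CpGs. Pramel7 had 1 CpG and Pramel6 had 2, against a median of 6 over 32851 RefSeq promoters of the same length, of which 81.2% and 71.0% held more. Pramef12 had 6 and Pramel1 had 18, and 78.3% of all promoters held fewer than Pramel1. Pramel4 had 1 CpG and Pramel5 had none. The windows of Pramel4 and Pramel5 were near copies of each other, with 95.7% identical aligned bases, whereas other pairs, Pramel6 and Pramel7 included, shared 53.4% to 64.9%. On neither strand did any of the 6 windows hold the TATA box letters TATAAA, found in 12.4% of all promoters, or the STAT3 site letters TTCCNGGAA, found in 0.913%. The Pramel7 window lies inside the gene as GENCODE draws it and includes 26 bases of annotated exon. Methylation of these windows was not analysed here.

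Library depth and the labels were checked first. Reads assigned to genes numbered 15258291 to 35432425 per library. Tet1 was at 27.8% of its shScr level in shTet1 cells and Tet2 at 26.6% in shTet2 cells, in normalised reads, with no overlap of the groups in either case. Tet2 in shTet1 cells and Tet1 in shTet2 cells were at 83.0% and 92.4%. The embryonic stem cell markers Pou5f1, Sox2, Nanog, Zfp42 and Esrrb were present throughout, with 2580 to 3570 RPM in sum (reads scaled to the gene reads of each library), and 0 of 5 passed the test in any comparison. Of all genes tested, 0.0718% passed in shTet1 and 0.39% in shTet2 against shScr, and 4.24% in shTet2 against shTet1. Odorant and vomeronasal receptors, genes of sensory neurons, took 54.5 to 64.7 RPM in replicate 4 of each group and in shTet1 replicate 3, and 11.1 to 26.5 in the other 11 libraries. Nothing in the labels says that same-numbered libraries, or the replicates of a group, came from separate cultures, and p-values measure the spread between these libraries only. The first principal component of the deviations from the group means held 37.9% of their variance and set replicates 1 and 2 apart from replicates 3 to 5 in every group. No label names a batch for it.

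Most of the expression came from Pramef12 and Pramef8. Pramef12 had 461.4 ± 56.4 normalised reads per kilobase in shScr cells (SD, n = 5), 478.8 ± 21.1 in shTet1 cells and 539.3 ± 51.4 in the shTet2 group. Pramef8 followed with 330.1 ± 46.4, 226.0 ± 52.4 and 343.9 ± 62.1. Pramef8 and Pramef12 together took 69.0% to 96.6% of the reads of the 7 genes in each library. Pramel7 had 76.5 ± 63.6, 46.0 ± 55.4 and 205.8 ± 193.4 normalised reads per kilobase, Pramel6 had 33.4 ± 14.0, 14.8 ± 13.6 and 52.0 ± 42.6, and Pramel1 had 14.7 ± 5.33, 16.6 ± 6.95 and 30.9 ± 13.8. In this order, the ranges of neighbouring genes overlapped in at least 1 group for each pair, except that Pramel1 and Pramel5 stayed apart in all groups. Pramel5 reached at most 2.98 and Pramel4 at most 2.89 normalised reads per kilobase, which are levels of 0 to 12 reads in a library. All 7 together made up 0.00988% to 0.0204% of gene reads.

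**Figure D1:**
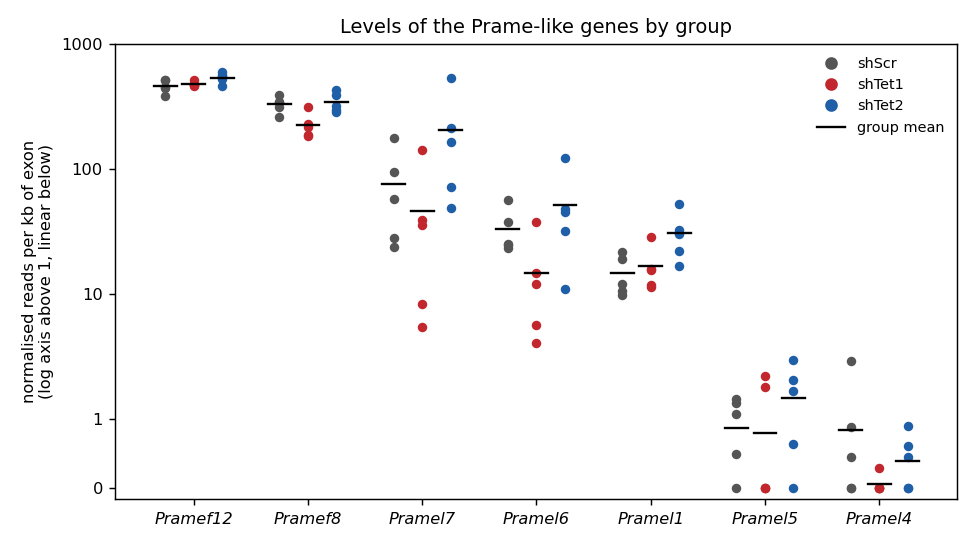
Normalised reads per kilobase of exon (y axis, logarithmic above 1 and linear below) of the 7 Prame-like genes in shScr, shTet1 and shTet2 cells, with 1 point per library (n = 5 per group) and bars at group means. Pramef12 and Pramef8 lie highest, Pramel7 spreads from 5.47 to 530.3, and Pramel4 and Pramel5 stay below 3.

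Pramel7, the UHRF1-directed member, varied most between libraries and was lowest in TET1-depleted and highest in TET2-depleted cells at every replicate number. In shScr libraries 1 to 5 it had 51.2, 60.2, 201.1, 123.2 and 381.1 normalised reads. Normalised reads are the recovered reads divided by the library's size factor. The shTet1 libraries had 11.7, 17.6, 83.0, 76.7 and 301.2, and the shTet2 libraries 103.7, 153.9, 453.9, 352.8 and 1132. Values of all groups overlapped, because replicates 1 and 2 were low and replicate 5 was high whichever hairpin the cells carried.

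On the deposited log2 scale, Pramel7 in shTet2 cells lay 1.88 ± 0.59 (SE) above shTet1 cells, with a 95% confidence interval of 0.65 to 3.11. In the limma fit with the group as its only term the Benjamini-Hochberg adjusted p was 0.0836 (two-sided, over 19490 genes), and the exact permutation test of this gene gave p = 0.0397, where 0.00794 is the smallest value that 5 against 5 libraries allow. The distance was nearly the same in each same-numbered pair, between 1.77 and 2.06, and was 1.88 both within replicates 1 and 2 and within replicates 3 to 5. With the replicate number as a block, the limma interval narrowed to 1.59 to 2.17, and the adjusted p was 1.29e-06. In the 10 fits without 1 library and with no block, the limma adjusted p lay between 0.0228 and 0.211, and it was under 0.05 in 1 of them, without shTet1 replicate 5. Against shScr, shTet1 cells were lower by −0.77 ± 0.59 (limma adjusted p = 0.672, exact permutation p = 0.31), and lower in 5 of 5 same-numbered pairs, by 0.31 to 1.06. Without 1 library the difference of Pramel7 ranged from −1.22 (without shTet1 replicate 5) to −0.44 (without shScr replicate 5), with −0.46 without shTet1 replicate 1. With the block, the interval was −1.06 to −0.48 and the limma adjusted p 0.00689. The difference of shTet2 from shScr was 1.11 ± 0.59, with a limma adjusted p of 0.494 and an exact permutation p of 0.151, and was positive in 5 of 5 pairs (0.71 to 1.48). It was 0.55 with array weights and 0.68 without shTet2 replicate 5. With the block, its interval was 0.82 to 1.4 and the limma adjusted p 0.000731, although the replicate numbers were not shown to pair these groups. The deposited scale compresses low values, and with voom on the recovered reads the log2 difference of Pramel7 was 2.65 between the knockdowns and −1.33 in shTet1 against shScr (adjusted p = 0.0653 and 0.594 in limma).

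**Figure D2:**
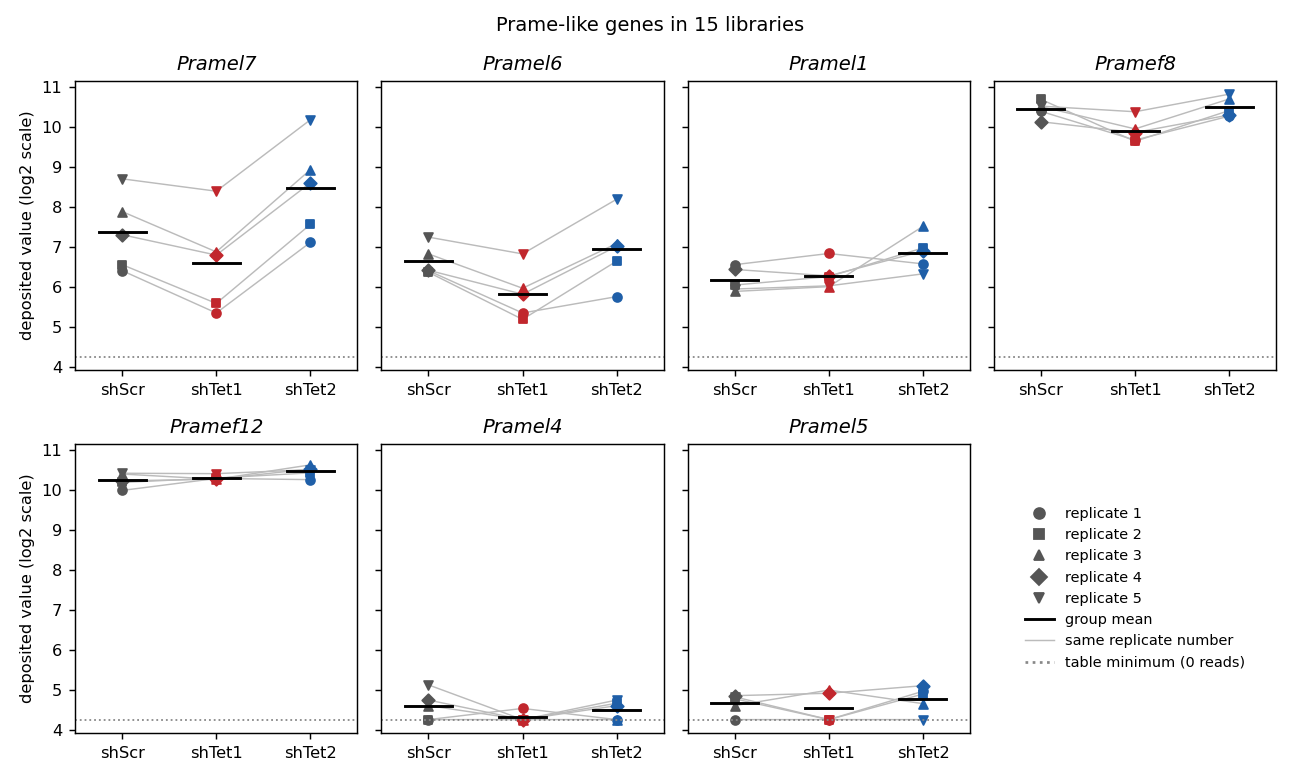
Deposited variance-stabilised values (y axis, log2 scale) of each Prame-like gene in shScr, shTet1 and shTet2 cells, with 1 symbol per replicate number, grey lines joining libraries of the same number and black bars at group means. For Pramel7 the 5 lines run almost in parallel, lower in shTet1 and higher in shTet2, while its groups overlap. The dotted line is the value of 0 reads.

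Pramel6, the divergent neighbour of Pramel7 and likewise a gene of the LIF response, had the same order of groups in most libraries. Its normalised reads in shScr libraries 1 to 5 were 51.2, 48.9, 78.8, 52.2 and 117.1. In shTet1 they were 11.7, 8.42, 30.7, 24.9 and 79.0, and in shTet2 23.0, 66.2, 100.5, 94.8 and 257.2. Again replicate 5 was the highest of each group, and shTet2 library 1 lay below all shScr libraries.

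Pramel6 was higher in shTet2 than in shTet1 cells by 1.11 ± 0.36 on the log2 scale (limma adjusted p = 0.0978, exact permutation p = 0.0635), and higher in 5 of 5 pairs. With the replicate block the limma adjusted p was 0.000935 (interval 0.72 to 1.5), and with no block it lay between 0.0264 and 0.235 in the 10 fits without 1 library, of which those without shTet1 replicate 5 (0.0348) and without shTet2 replicate 1 (0.0264) passed. Its difference between shTet1 and shScr was −0.82 ± 0.36, with a limma adjusted p of 0.371 and an exact permutation p of 0.0556. The value was negative in 5 of 5 pairs, and with the block the limma adjusted p was 0.0198 (interval −1.21 to −0.43). Between shTet2 and shScr the difference was 0.29 ± 0.36 (limma adjusted p = 0.837, interval −0.47 to 1.04). It was −0.18 within replicates 1 and 2 and 0.6 within replicates 3 to 5, and without shTet2 replicate 5 it was −0.03. On voom's scale of recovered reads, Pramel6 differed by 1.91 between the knockdowns and by −1.56 in shTet1 against shScr (limma adjusted p = 0.087 and 0.327).

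Across the 15 libraries, Pramel6 and Pramel7 went together, with Pearson's r = 0.939 and Spearman's rho = 0.925 on the deposited scale. Taken as deviations from the group means, r was 0.944, so that the relation held among libraries of the same hairpin. These points share groups and replicate numbers, and r is given as a description only. Among the other pairs of members r lay between −0.106 and 0.854, the highest being Pramel6 with Pramef8. The nearest annotated olfactory receptor gene of the same locus that could be tested, Olfr153, had a mean value of 5.06, and differed by −0.02, 0.15 and 0.16 in the 3 comparisons (limma adjusted p = 0.991, 0.883 and 0.838).

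**Figure D3:**
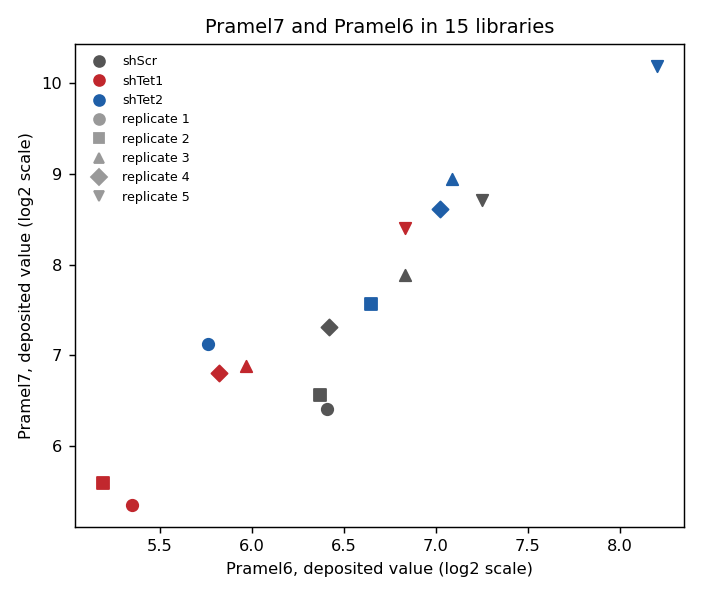
Deposited values (log2 scale) of Pramel7 (y axis) against Pramel6 (x axis), 1 point per library, coloured by group and shaped by replicate number. The 15 points lie along a diagonal (r = 0.939), from shTet1 replicates 1 and 2 at the bottom to shTet2 replicate 5 at the top.

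Pramef8 was the only member to pass the limma threshold without a block, and in 1 comparison. Its normalised reads were 1318, 1621, 1426, 1092 and 1437 in shScr libraries 1 to 5. They were 783.9, 768.1, 959.3, 900.0 and 1309 in shTet1 and 1201, 1330, 1640, 1230 and 1780 in shTet2. Replicate 5 of shTet1 reached into the range of both other groups, and the other 4 shTet1 libraries lay below every library of shScr and shTet2.

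The difference between shTet2 and shTet1 cells was 0.6 ± 0.16 for Pramef8 (interval 0.26 to 0.93, limma adjusted p = 0.0406, exact permutation p = 0.0238), and each of 5 pairs was higher, by 0.43 to 0.76. This call was lost after median centring (limma adjusted p = 0.147), when these groups were fitted alone (0.0636) and in 7 of the 10 fits without 1 library of either group, namely shTet1 replicate 1, 2, 3 or 4 and shTet2 replicate 2, 3 or 5. Over these 10 fits the limma adjusted p lay between 0.0103 and 0.117. Within replicates 1 and 2 and replicates 3 to 5, the difference was 0.68 and 0.54. Compared with shScr, shTet1 cells were lower by −0.54 ± 0.16 (limma adjusted p = 0.161, exact permutation p = 0.0159), or 68.5% of the shScr mean in normalised reads. With the block this had a limma adjusted p of 0.0181, and 5 of 5 pairs were lower. Within replicates 1 and 2 the difference was −0.88, and within replicates 3 to 5 it was −0.32. With no block, the limma adjusted p lay between 0.0471 and 0.416 in the 10 fits without 1 library, and the fit without shTet1 replicate 5 passed. In shTet2 cells Pramef8 differed from shScr by 0.05 ± 0.16 (limma adjusted p = 0.951, interval −0.28 to 0.39).

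Pramel1, a testis-expressed member, had few reads, and its highest values were in shTet2 cells. Normalised reads were 60.4, 33.9, 27.4, 53.3 and 29.8 in shScr libraries 1 to 5, 79.6, 43.6, 31.9, 44.6 and 32.7 in shTet1, and 61.7, 90.8, 147.9, 84.5 and 47.0 in shTet2. Most shTet2 libraries exceeded all shScr libraries, replicate 5 being the exception. The shTet2 cells lay 0.68 ± 0.22 above shScr (limma adjusted p = 0.208, exact permutation p = 0.0317) and 0.58 ± 0.22 above shTet1 (limma adjusted p = 0.188, exact permutation p = 0.0397). Between shTet1 and shScr the difference was 0.10 ± 0.22 (interval −0.37 to 0.57). Unlike Pramel6 and Pramel7, Pramel1 was not high in replicate 5, and its r with Pramel7 was 0.0778.

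Pramef12, the member with the highest level per kilobase and one required in spermatogenesis, was the steadiest. It had 982.8 to 1336 normalised reads in shScr libraries, 1196 to 1327 in shTet1 and 1190 to 1544 in shTet2, and all groups overlapped. The differences were 0.06 ± 0.12 in shTet1 and 0.22 ± 0.12 in shTet2 against shScr, with 95% intervals of −0.19 to 0.3 and −0.02 to 0.47 (limma adjusted p = 0.906 and 0.491). Between shTet2 and shTet1 the value was 0.16 ± 0.12 (limma adjusted p = 0.583, exact permutation p = 0.0635).

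Pramel4 and Pramel5 were at the limit of detection. Pramel4 had 10 reads over the 5 shScr libraries, 1 read in shTet1 and 6 in shTet2, and was at 0 in 8 of 15 libraries. Pramel5 had 9, 8 and 24 reads and was at 0 in 5 libraries. With 3 reads as the upper limit for a count of 0, a difference in these genes was not detectable at this depth, and the limma adjusted p lay between 0.538 and 0.897 for Pramel4 and between 0.646 and 0.894 for Pramel5. Such limits cover counting error only.

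**Figure D4:**
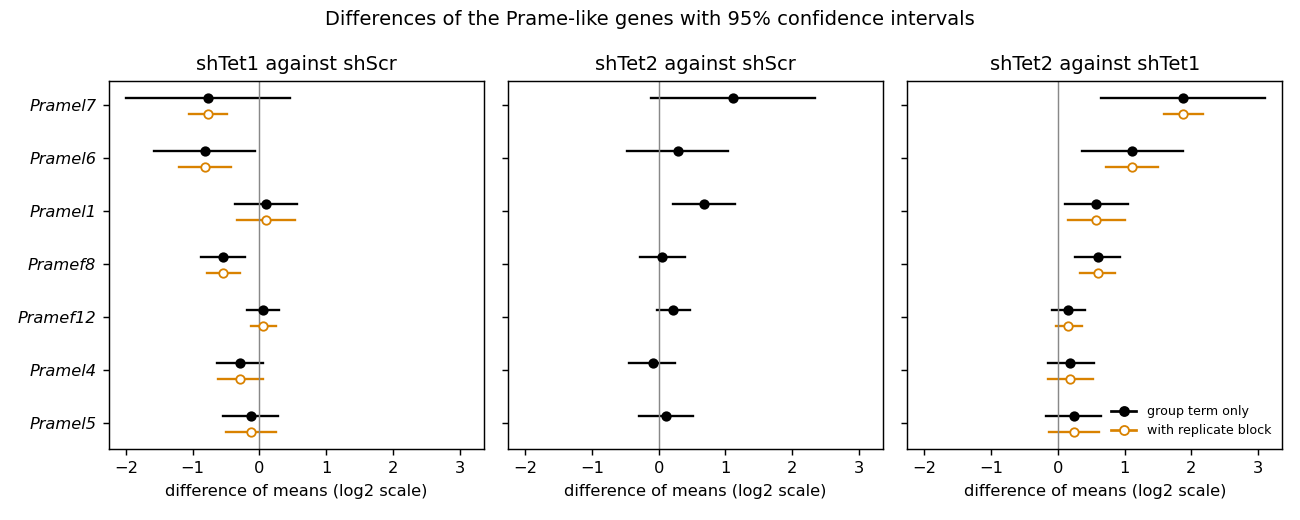
Differences of group means (x axis, log2 scale) of the 7 genes in the 3 comparisons, with 95% confidence intervals (n = 5 per group). Black is the limma fit with the group as only term and orange the fit with the replicate block, drawn where same-numbered libraries deviated together. With the block the interval of Pramel7 narrows from 0.65 to 3.11 to 1.59 to 2.17 between the knockdowns.

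Counted over the set, 0 of 7 members passed limma in shTet1 against shScr, where 0.0718% of all genes did, 0 of 7 in shTet2 against shScr (0.39% of all genes) and 1 of 7, Pramef8, in shTet2 against shTet1 (4.24% of all genes). Members with an unadjusted limma p under 0.05 numbered 2, 1 and 4, where 11.8%, 11.6% and 15.7% of all genes had one. With the replicate block, 3 members were lower in shTet1 than in shScr, where 4.8% of genes were called in either direction, and the same symbols, Pramel7, Pramel6 and Pramef8, were higher in shTet2 than in shTet1 (11.2% of genes). These comparisons share libraries. No member had groups free of overlap in any comparison, against 2.62%, 2.7% and 6.04% of all genes. Median differences of the 7 were −0.29, 0.22 and 0.58, beside 0.01, 0.04 and 0.01 over all genes tested, and the first of these was −0.15 without shScr replicate 5. The −0.29 is the value of Pramel4, a gene at the limit of detection. All 7 had passed the filter on low values.

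The remaining Prame genes of the table, 36 in number and mostly in the same cluster of chromosome 4 or one of chromosome 5, were compared in the same fit. Of the 27 that passed the filter, 19 were higher in shTet2 than in shTet1 cells in limma (4.24% of all genes called). In shTet2 against shScr 1 was higher, Gm13119 (0.39% of all genes), and 0 passed in shTet1 against shScr. An unadjusted p under 0.05 was found for 15 in shTet1 and 18 in shTet2 against shScr, beside 11.8% and 11.6% of all genes. Groups did not overlap for 6 and 9 of them (2.62% and 2.7% of all genes). With the block, 6 were lower in shTet1 than in shScr, against 4.8% of all genes called in either direction. It also gave 13 higher in shTet2 than in shScr (4.31% of all genes), where the replicate numbers were not shown to pair the libraries. Median differences of the 27 were −0.57 in shTet1 and 0.73 in shTet2 against shScr, and 1.32 between the knockdowns, beside 0.01, 0.04 and 0.01 over all genes. Since genes detected in a single group could pass the filter through that group, these counts and medians describe the genes tested and not the family.

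Gm12794, now Pramel19, was the most abundant of them. It had 893.7, 1174, 1177, 1223 and 996.3 normalised reads in shScr libraries 1 to 5, 149.6, 381.0, 800.9, 623.2 and 595.7 in shTet1 cells. Those of shTet2 had 2462, 3356, 2120, 2822 and 1994. The 3 groups did not overlap in any comparison, unlike those of any of the 7 Prame-like genes. Its difference between the knockdowns was 2.39 ± 0.29 (limma adjusted p = 0.000123). Gm13119 differed from shScr by −0.70 ± 0.21 in shTet1 (limma adjusted p = 0.163, and 0.0334 with the block) and was higher by 1.08 ± 0.21 in shTet2 (limma adjusted p = 0.0297), a call that was lost in 6 of the 10 fits without 1 library of these groups (shScr replicate 1, 2 or 5, shTet2 replicate 1, 2 or 4). Of the 75-base stretches in their exons, 46.18% and 26.95% also occur elsewhere, and those of Gm13057, BC061212, Gm16522 and Gm7978 all do, so that reads of several of the 19 cannot be assigned to 1 copy with certainty. The 19 calls are therefore not independent of each other. Prame itself, on chromosome X, had at most 12 reads per library and differed by −0.16, 0.15 and 0.31 (limma adjusted p = 0.828, 0.852 and 0.522). Summed over the 36 genes, the level was 94.0 to 144 RPM in shScr, 27.2 to 83.3 in shTet1 and 211 to 374 in shTet2, without overlap. Summed over the 7 Prame-like genes it was 114 to 144, 98.8 to 125 and 127 to 204, with overlap of neighbouring groups.

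**Figure D5:**
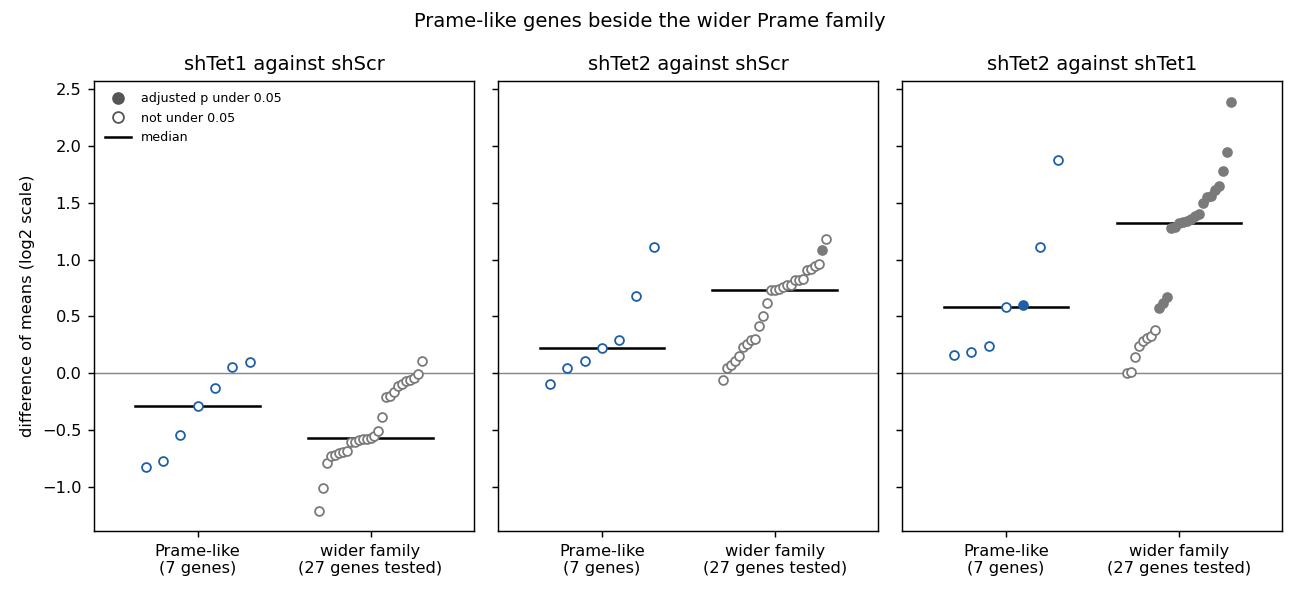
Differences of group means (y axis, log2 scale) of the 7 Prame-like genes and of the 27 other Prame genes tested, in 3 comparisons, each point a gene in order of its difference, filled where the limma adjusted p was under 0.05, with bars at the medians. The wider family has its median at −0.57, 0.73 and 1.32, and the 7 genes at −0.29, 0.22 and 0.58.

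A small share of ESCs at any time passes through a state resembling the 2-cell embryo, marked by Zscan4 genes and by MERVL, an endogenous retrovirus whose promoter is the repeat MT2_Mm, and Prame genes are among those expressed at that stage. The 21 measured genes listed for this state had median differences of −1.0 and 0.96 from shScr and 1.9 between the knockdowns. In limma 19 were higher in shTet2 than in shTet1 cells (4.24% of all genes called). In shTet2 against shScr 1 was higher, Tdpoz3 (0.39% of all genes), and 0 passed in shTet1 against shScr. An unadjusted p under 0.05 was found for 18 in shTet1 and 18 in shTet2 against shScr (11.8% and 11.6% of all genes). Groups did not overlap for 5 and 15 of them (2.62% and 2.7% of all genes). With the block, 16 were lower in shTet1 than in shScr, again beside 4.8% of all genes. It also gave 13 higher in shTet2 than in shScr (4.31% of all genes), where the replicate numbers were not shown to pair the libraries. Zscan4c differed by −1.28 ± 0.31 in shTet1 and was 2.24 ± 0.31 higher in shTet2 than in shTet1 (limma adjusted p = 0.0987 and 0.000315), and with the block the first of these p-values was 0.0195. MERVL-int differed by −1.43 ± 0.38 in shTet1 and 0.73 ± 0.38 in shTet2 against shScr, and by 2.15 ± 0.38 between the knockdowns (limma adjusted p = 0.99, 1 and 0.0145 over repeat classes). Summed over the list, the level was 1880 to 2830 RPM in shScr, 840 to 2140 in shTet1 and 3460 to 5170 in shTet2, and no listed gene was at 0 in a whole group. It was higher in replicates 3 to 5 than in 1 and 2 within shScr and shTet1, as Pramel7 was, but not within shTet2. Its part in the differences of the Prame-like genes was not tested, and in bulk RNA more cells in this state and more RNA per cell cannot be told apart.

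Genes around the known actions of PRAME proteins were read from the same fit. In the list of the CUL2 ligase, UHRF1 and maintenance methylation, 0 of 9 genes passed limma in any comparison, with or without the block, and differences lay between −0.19 and 0.27. Of all genes, 0.0718%, 0.39% and 4.24% passed without the block and 4.8%, 4.31% and 11.2% with it, so that 0 of 9 is near these shares. Cul2, the scaffold of the ligase, differed by −0.05, −0.19 and −0.14, and Uhrf1, the protein target of Pramel7, by 0.14 ± 0.17, −0.02 ± 0.17 and −0.16 ± 0.17 at the level of its RNA. Dnmt1 differed by 0.02, −0.11 and −0.14. Usp7, a deubiquitinase of UHRF1, differed by −0.07, −0.19 and −0.12. Among 10 measured genes of LIF and STAT3 signalling, upstream of Pramel6 and Pramel7, 0 passed limma without the block. An unadjusted limma p under 0.05 was found for 1, 0 and 4 of them in the 3 comparisons, beside 11.8%, 11.6% and 15.7% of all genes. Stat3 differed by −0.24 ± 0.13, −0.24 ± 0.13 and 0.00 ± 0.13, and its feedback inhibitor Socs3 by 0.24, 0.08 and −0.16. Gbx2, a LIF target that supports self-renewal, differed from shScr by 0.08 ± 0.43 in shTet1 and −0.83 ± 0.43 in shTet2 (limma adjusted p = 0.969 and 0.479). Between shTet2 and shTet1 it differed by −0.91 ± 0.43 (limma adjusted p = 0.306, and 0.00537 with the block). The block gave 0.0253 in limma for shTet2 against shScr, where the replicate numbers were not shown to pair the libraries. The 10 differences between the knockdowns lay between −0.91 and 0.00, with a median of −0.25 beside 0.01 over all genes. After Gbx2, the largest were those of Klf4 (−0.61 ± 0.24), Jak1 (−0.47 ± 0.15) and Il6st (−0.37 ± 0.14), with limma adjusted p = 0.192, 0.103 and 0.182. Of 11 genes of retinoic acid receptor signalling, 0 passed without the block, and the receptor genes Rara and Rarg differed by 0.20 and −0.36 in shTet1 and by 0.18 and −0.18 in shTet2. Differences from shScr lay between −0.36 and 0.54 in shTet1 and between −0.22 and 0.72 in shTet2, with the highest values in Crabp1, a cytosolic retinoic acid binding protein (0.54 ± 0.22 and 0.72 ± 0.22, limma adjusted p = 0.318 and 0.167). An unadjusted limma p under 0.05 was found for 1 and 2 of the 11 in these comparisons, beside 11.8% and 11.6% of all genes. Rxra, their partner receptor, was higher in shTet2 than in shTet1 by 0.34 ± 0.12 (limma adjusted p = 0.114, and 0.0348 with the block).

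Lists of other cell types were read for the same libraries. Among 12 primitive endoderm genes, 0 passed without the block, where 0.0718%, 0.39% and 4.24% of all genes did in the 3 comparisons. All 12 were lower than in shScr both in shTet1 (median −0.26) and in shTet2 (median −0.67). An unadjusted limma p under 0.05 was found for 1 and 9 of them, beside 11.8% and 11.6% of all genes. With the block, 3 of them were lower in shTet2 than in shTet1 (11.2% of all genes called). It also gave 5 lower in shTet2 than in shScr (4.31% of all genes), where the replicate numbers were not shown to pair the libraries. Of 10 trophoblast genes, Ascl2 was higher and Eomes lower in shTet2 than in shTet1 (0.88 ± 0.23 and −0.94 ± 0.22, limma adjusted p = 0.0312 and 0.0185), and with the block Gata3 (0.65) and Krt7 (0.66) were higher there and Eomes (0.8) was higher in shTet1 than in shScr. Between the knockdowns 4.24% of all genes passed without the block and 11.2% with it, and in shTet1 against shScr 4.8% passed with it. Of 9 germ cell genes, Dppa3, a maternal factor known to bind UHRF1, was higher in shTet2 than in shScr by 1.41 ± 0.29 (limma adjusted p = 0.0372), and Tex101 was higher in shTet2 than in shTet1 by 0.65 ± 0.16 (limma adjusted p = 0.0249). Each is the 1 call of its comparison among the 9, where 0.39% and 4.24% of all genes were called. With the block, Dppa3 was also higher in shTet1 than in shScr (1.07, limma adjusted p = 0.0164, 4.8% of all genes called) and Mael, a germline piRNA factor, in shTet2 than in shTet1 (0.77, limma adjusted p = 0.0036, 11.2% of all genes called). Their part in the results above was likewise not tested.

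The genes whose values followed each member most closely over the 15 libraries, among 10565 genes outside the family, differed from member to member. Pramel7 was nearest to Smyd1 (r = 0.928), Trim43a (0.915) and Ercc4 (0.915), and Pramel6 to Nrp1 (0.941), Gabarapl2 (0.912) and Trim43a (0.905). Pramef8 was nearest to Slc5a6 (0.944), Fam72a (0.921) and Nrp1 (0.92). Trim43a and Nrp1 thus each appeared for a pair of members. Pramef12 was nearest to Fbxo34 (0.861), Itm2a (0.856) and Ddx4 (0.791), and Pramel1 to Robo1 (0.875), Ece1 (0.874) and Creb3l1 (0.871). For Pramel4 (Myof, 0.775) and Pramel5 (Magi2, 0.802) the values rest on a few reads. These correlations are descriptions over libraries that share groups and replicate numbers.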

How the data were processed

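Single-end RNA-seq reads of 75 bases from directional, rRNA-depleted libraries were, per the labels and the study's methods, trimmed (Trim Galore 0.3.3), aligned to mm9 (TopHat2 2.0.9) and counted per gene and repeat class in Seqmonk. The authors deposited variance-stabilised values from DESeq2, which are on a log2 scale and normalised for depth. Whether counting used strand is not given in the sources used here, and RNA had been extracted with either of 2 kits that the labels do not assign to libraries. Reads were recovered by inverting the transformation, with 100.0% of values whole within 0.05 reads. The lowest value, 4.25, is 0 reads.

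The members and gene lists were chosen with earlier results of these data known. Deposited values were fitted with limma 3.58.1 (R 4.3.3) in 1 model of 15 libraries with a variance trend and the group as only term. Genes above the minimum in at least 5 libraries were tested (19490), two-sided, with Benjamini-Hochberg adjustment and a threshold of 0.05. The fit was tested on simulated data. Exact permutation tests compared 5 with 5 libraries. Deviations of same-numbered libraries correlated at 0.374 to 0.657 (shTet1, shScr) and 0.33 to 0.731 (shTet2, shTet1), so that the block value is given there where it changes a call. In each of these comparisons 1 number correlated better with another number (replicate 2, 0.374 against 0.577, and replicate 1, 0.428 against 0.523). For shTet2 and shScr, 1 pair had 0.00789, and block values of that comparison are given for some results only, with this limit. Alternatives were the filter, trend, libraries fitted, centring, quantile normalisation, array weights, block, voom on recovered reads, receptor share and each library left out. Splits by replicates 1 and 2 against 3 to 5 and the counts of the wider family were added after the data were seen. Named genes were all members, other Prame and list genes past the threshold or of highest level, and the 3 genes with the highest r per member. Repeated exon stretches were found with blastn 2.17.0. Promoter sequences came from the RefSeq table (GRCm38.p6).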

Additional observations from a re-analysis of the deposited data

Results flagged for a closer look

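In 21 checks of 7 genes in 3 groups, a single library stood apart from the rest of its group 2 times, and chance alone flags about 1 in 20 such groups. Pramel4 in shTet1 replicate 1 had a value of 4.53, which is 1 read, while the other 4 libraries of the group were at 4.25, or 0 reads. With 4 libraries tied at 0 reads any read sets the remaining library apart, so that the rate of 1 in 20 does not apply to this flag. Pramef12 in shTet1 replicate 5 had a value of 10.41 (1176 reads), with the nearest library at 10.3, a gap of 0.768 of the range of the group.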

How the results depend on the processing

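The replicate block moved the counts most. With it, 3 Prame-like genes were called in shTet1 against shScr and 3 in shTet2 against shTet1. For shTet2 against shScr, where the numbers were not shown to pair the libraries, the block gave 1, Pramel7 (limma adjusted p = 0.000731), with 4.31% of all genes called. There, 2 of 5 numbers correlated better with another number than with their own. The block changed no other call of a member. The wider family then had 6 and 13 calls against shScr. A term for replicates 1 and 2 against 3 to 5 gave 3 Prame-like calls between the knockdowns, and 2 and 11 of the wider family against shScr. In shTet2 against shTet1 the Prame-like count was 0 after median centring or with only the groups compared. For the wider family in shTet2 against shScr it was 8 with array weights, 0 with median centring, 2 without the filter, 6 with only the groups compared, 3 with the receptor share and 2 with voom, and in shTet1 against shScr 1 with the receptor share. The median of the 7 in shTet1 was −0.87 with voom on recovered reads, a scale that does not compress low values, and −0.37 to −0.15 without 1 library. The −0.87 is the value of Pramel5 (limma adjusted p = 0.797 with voom), and the main median of −0.29 is that of Pramel4. Both genes were at the limit of detection, so that these medians do not describe the better measured members. The cause of these changes was not tested, beyond the smaller residual spread under the block.

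Leaving out 1 library gave 0 to 1 Prame-like calls in shTet1 against shScr (1 without shTet1 replicate 5, Pramef8) and 0 to 3 in shTet2 against shTet1. The latter was 0 without shTet1 replicate 1, 2, 3 or 4 or shTet2 replicate 2, 3 or 5, 2 without shTet2 replicate 1 and 3 without shTet1 replicate 5. The wider family had 0 to 1 and 0 to 2 calls against shScr, with 0 in shTet2 without shScr replicate 1, 2 or 5 or shTet2 replicate 1, 2 or 4, 2 without shTet2 replicate 5, and 1 in shTet1 without shTet1 replicate 5.

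Small differences changed sign. In shTet2 against shScr, Pramel6 was −0.00 and Pramef8 −0.01 with array weights, Pramef8 −0.06 with median centring, and Pramel5 −0.00 with quantile normalisation. Within replicates 1 and 2, Pramel4 was 0.14 in shTet1 and 0.2 in shTet2, Pramel6 −0.18 and Pramef8 −0.2 in shTet2. Within replicates 3 to 5, Pramef12 was −0.04 in shTet1, Pramel5 −0.09 and Tet1 0.1 in shTet2, and Pramel5 −0.05 between the knockdowns. Over the fits without 1 library, Pramel1 in shTet1 ranged from −0.04 to 0.2 and Pramef12 from −0.00 to 0.1, and in shTet2 against shScr Pramel4 ranged from −0.18 to 0.04, Pramel6 from −0.03 to 0.58 and Pramef8 from −0.03 to 0.11. The differences of Pramel7 and of the targeted genes under their own hairpin kept their direction under all of these alternatives. Depth limits Pramel4 and Pramel5, with 0 to 12 reads per library.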
